A study of Mus musculus with 4 samples.

Results

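The Bcl2 family decides whether a cell keeps the outer membrane of its mitochondria intact or lets it be permeabilised, the step that releases cytochrome c and starts the intrinsic pathway of apoptosis. Survival members such as Bcl2l1 (Bcl-xL) and Mcl1 bind and restrain the pore-forming effectors Bax and Bak1, and the BH3-only members (Bid, Bbc3, Pmaip1 and Bcl2l11) antagonise the survival members or activate the effectors. In the ovary, oocytes carrying DNA damage are removed through this pathway, and Bcl2l10 (also called Diva or Boo) is a family member known for its expression in oocytes. Here 10 genes of the family were chosen by name, namely Bcl2l10, Mcl1, Bcl2, Bcl2l1, Bax, Bak1, Bid, Bbc3, Pmaip1 and Bcl2l11. Of these, 7 were found among the 16861 genes that each library lists. Bcl2, Bak1 and Bbc3 are not among the listed genes, so their levels were not analysed here.

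The libraries were made from fully grown germinal vesicle (GV) oocytes of 3-week-old female C57BL/6J mice, freed of cumulus cells and sorted by their Hoechst-stained chromatin into non-surrounded nucleolus (NSN) oocytes, whose chromatin is dispersed, and surrounded nucleolus (SN) oocytes, whose chromatin forms a ring around the nucleolus. There were 2 libraries per configuration, each of 15 pooled oocytes, amplified by Smart-seq2 from an oligo(dT) primer. No treatment or genotype separates the groups, and nothing in the labels says that the libraries came from separate animals, so the p-values below measure the spread between these libraries. Values are FPKM, that is read pairs scaled to gene length and to the total of the library, so a level is a share within a library. In such pooled samples, less RNA per oocyte and fewer oocytes with a transcript cannot be told apart.

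Library totals ranged from 17069772 to 17998361 read pairs, so that 3 read pairs of a 1 kb gene equal 0.167 to 0.176 FPKM. All 13 oocyte markers checked, Gdf9, Zp3 and Bmp15 among them, were listed. Of 15 granulosa and cumulus cell markers, 10 were listed, and Amh, Amhr2, Foxl2, Inhbb and Slc38a3 were not. No listed granulosa marker was at 0 in any library, and their summed level was 9.78 and 13.8 FPKM in NSN and 14.1 and 14.0 FPKM in SN replicates 1 and 2, of which Cyp19a1 held most (5.81, 8.06, 8.38 and 8.22 FPKM).

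The family is defined by short shared stretches of sequence, of which the BH3 core (a leucine, 3 residues of any kind, a glycine and an aspartate) is the one common to most members. It is shown here because the BH3 region takes part in the binding between survival, effector and BH3-only proteins. In the coding sequences of the canonical transcripts (GENCODE M39 on GRCm39), the core was searched in frame as a leucine codon (CTN, TTA or TTG), any 3 codons, GGN and then GAT or GAC. The runs below are given 5′ to 3′ on the coding strand, and the capitals mark the core.

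Bcl2l1: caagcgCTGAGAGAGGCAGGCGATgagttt

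Mcl1: gagaccCTGCGGCGCGTGGGCGACggcgtg

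Bax: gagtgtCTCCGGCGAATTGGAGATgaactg

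Bid: agacatCTCGCCCAAATAGGCGATgagatg

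Bcl2l11: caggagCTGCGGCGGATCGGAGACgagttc

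They lie within coding exons at chr2:152671620-152671649 (minus strand) for Bcl2l1, chr3:95566741-95566770 (plus) for Mcl1, chr7:45115424-45115453 (minus) for Bax, chr6:120874253-120874282 (minus) for Bid and chr2:127989064-127989093 (plus) for Bcl2l11. Each of these 5 coding sequences held 1 match. It began at codon 90 of 233 in Bcl2l1, 194 of 331 in Mcl1, 63 of 192 in Bax, 90 of 195 in Bid and 150 of 196 in Bcl2l11. The coding sequence of Pmaip1 held 2 matches. That of Bcl2l10, 191 codons long, held none, so these letters are not in its coding sequence. Of the 3 members not among the listed genes, Bcl2 (codon 94 of 236) and Bak1 (codon 76 of 209) each held 1 match, and the BH3-only gene Bbc3 held none. The search takes only these exact residues, so the lack of a match does not show that Bcl2l10 or Bbc3 lacks a BH3 region. Of the canonical coding sequences of the genes tested, 14.7% (1414 of 9589) held a match, so the letters alone do not mark the family.

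The 7 listed members spanned a wide range of levels, from Bcl2l10 at a mean of 8558 FPKM to Pmaip1 at 0.0882 FPKM, and Bcl2l10 alone accounted for nearly all of their sum. Bcl2l10, counted here with the survival genes, Bcl2l1 and Mcl1 summed to 9095 and 8317 FPKM in NSN and to 8009 and 8924 FPKM in SN replicates 1 and 2. Bax, the only effector listed, had 10.9 to 15.4 FPKM. Without Bcl2l10, the survival genes summed to 32.3 and 26.5 FPKM in NSN and to 27.6 and 25.9 FPKM in SN, and Mcl1 lay below both Bax and Bcl2l11. The BH3-only genes Bid, Pmaip1 and Bcl2l11 summed to 1.43 and 1.48 FPKM in NSN and to 1.61 and 1.42 FPKM in SN. With Bax, the death genes came to 13.1 and 12.4 FPKM in NSN and to 14.3 and 16.9 FPKM in SN, below the survival genes without Bcl2l10 in every library. The order of the levels was Bcl2l10, Bcl2l1, Bax, Bcl2l11, Mcl1, Bid and Pmaip1 in all 4 libraries, and no range overlapped that of its neighbour. The narrowest steps were between Mcl1 and Bid (1.35-fold between means) and between Bcl2l11 and Mcl1 (1.39-fold). These steps depend on the gene length: with the exonic lengths of GENCODE M39, Bcl2l11 came to 0.622 and Mcl1 to 0.644 FPKM, in the opposite order, and Bid came to 0.109 FPKM, near Pmaip1 at 0.0882. Only the lengths were exchanged there. Read pairs were not recounted over the added bases, so the order under GENCODE M39 is not known.

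**Figure D1:**
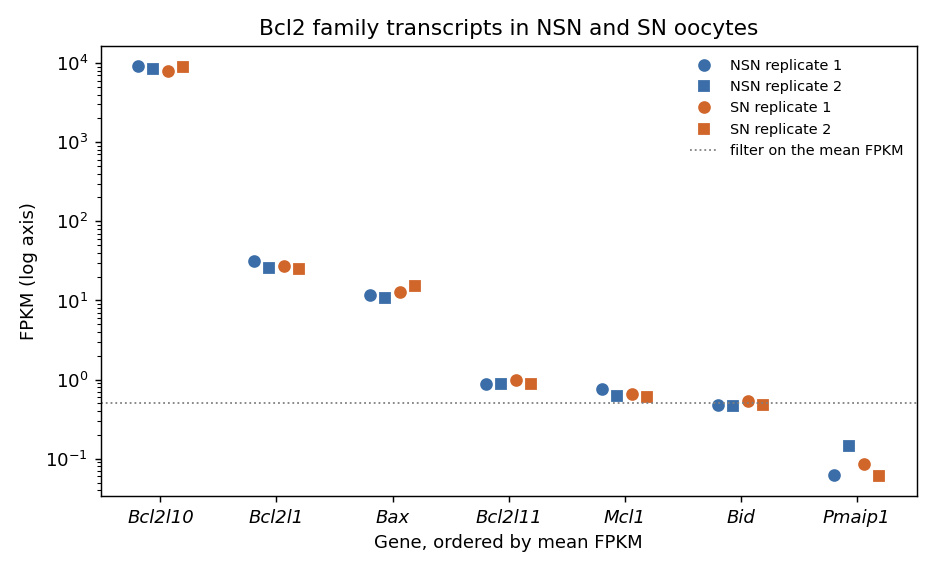
FPKM (log axis) of the 7 listed Bcl2 family members in each library, with NSN in blue, SN in orange, circles for replicate 1, squares for replicate 2 and the filter of a mean FPKM of 0.5 dotted. Bcl2l10 lies near 8558 FPKM, 312-fold above Bcl2l1, and Bid and Pmaip1 lie under the filter by their means.

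None of the members changed between NSN and SN oocytes by the test. Of the 5 with a mean FPKM of at least 0.5, limma called 0 (a call needed an adjusted p under 0.05 together with a 1.2-fold difference). By the same rule, 7.93% of all 11672 genes tested were called (926 genes, 5.95% higher and 1.98% lower in SN), so with 5 members a count of 0 is near the background. An unadjusted limma p under 0.05 was met by 0 of the 5, beside 31.7% of all genes tested. Voom on the recovered read pairs likewise called 0 of the 5, against 19.7% of the 11660 genes it tested. The median gene had a log2 fold change of 0.14 on the deposited FPKM, and each member tested is therefore also given relative to it. For a single gene, permuting the 4 libraries exactly gives no two-sided p below 0.333, so each adjusted p rests on limma's pooling of the spread across genes.

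Bcl2l10 (ENSMUSG00000032191.8, chromosome 9 from 75255040 to 75259442 on GRCm39) was the most abundant transcript of these oocytes by mean FPKM. It had 9063 and 8290 FPKM in NSN replicates 1 and 2, and 7981 and 8898 FPKM in SN replicates 1 and 2. The highest library was NSN and the lowest was SN, but the ranges overlapped and the replicates of each configuration lay farther apart than the group means. Its mean was 8677 ± 546 in NSN and 8440 ± 648 in SN (SD, n = 2). The log2 fold change was -0.04 with a standard error of 0.08 (limma adjusted p = 0.773) and a 95% interval from -0.24 to 0.16, that is a fold between 0.845 and 1.12. Relative to the median gene it was -0.18.

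The values of Bcl2l10 rest on 195173 and 183689 read pairs in NSN and 168527 and 198109 in SN. It alone took 1.12% (exact 95% binomial interval 1.12% to 1.13%) and 1.03% (1.02% to 1.03%) of the NSN totals, and 0.987% (0.983% to 0.992%) and 1.10% (1.10% to 1.11%) of the SN totals. PCR copies are not separate molecules, so such intervals hold counting error alone. By FPKM it ranked 1 in NSN replicate 1 and SN replicate 2, and 2 in the other two libraries, where H1f8, the oocyte linker histone gene, lay above it. By read pairs it ranked 4 in both NSN and 3 in both SN libraries. The deposited values use a gene length of 1237 bases for Bcl2l10, whereas its exons span 1748 bases in GENCODE M39. Dividing the same read pairs by that length, with all other genes left at their deposited lengths, gave 6056 FPKM on average and rank 3 and 4 in NSN and 2 in both SN libraries. Read pairs on the added bases were not counted, so its level and rank under GENCODE M39 are not known.

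On the deposited FPKM, 86 of the 100 most abundant transcripts had a larger absolute log2 fold change than Bcl2l10, as did 90.7% of all genes tested. Relative to the median gene, 53 of the 100 had a larger one. In the 10 most abundant, the SN values were all under the NSN values for 6 genes (17.8% of all genes tested), and 2 were called lower (Zp3, a zona pellucida gene, and Nlrp14). In the 20 most abundant, 6 were called lower and 0 higher, and 19 genes had a larger absolute log2 fold change than Bcl2l10. Counted relative to the median gene, 15 of the 20 had a larger one. In all 100, 17 were called lower and 1 higher, with a median log2 fold change of -0.05. Over all genes tested, 1.98% were called lower and 5.95% higher. No test set Bcl2l10 against these genes.

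**Figure D2:**
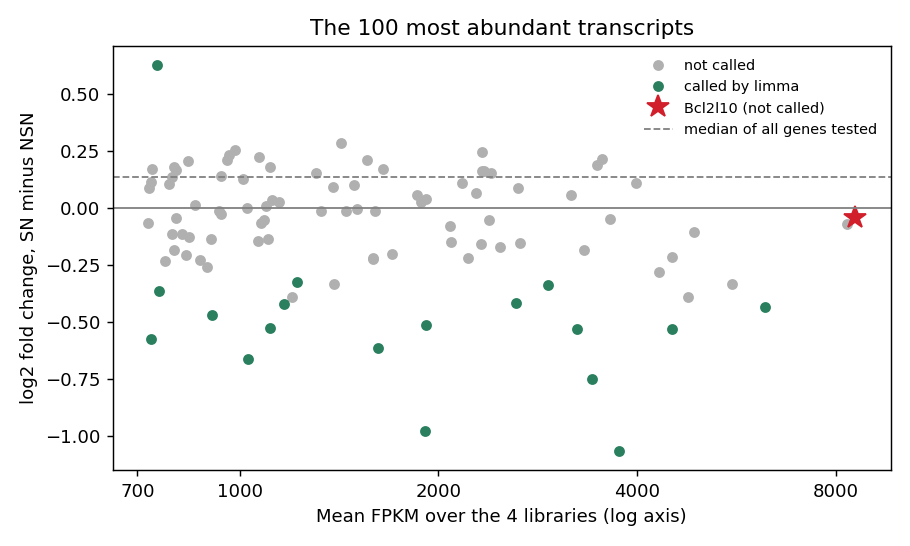
Log2 fold change (SN minus NSN, on log2(FPKM + 0.5)) against mean FPKM (log axis) for the 100 most abundant transcripts, one point per gene, with called genes in green, Bcl2l10 as a red star and the median of all genes tested dashed. Bcl2l10 lies at the right edge at -0.04, next to H1f8 and above Zp3 at -0.43 and Gdf9 at -1.07.

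Oocyte markers were mostly lower in SN. Of the 13, 9 were called lower in SN and 0 higher, with a median log2 fold change of -0.49. Over all genes tested, 1.98% were called lower and 5.95% higher, and the median was 0.14. Kit went the other way, with both SN libraries above both NSN libraries (log2 fold change 0.29, not called). Gdf9, the growth factor that oocytes secrete to granulosa cells, fell from 5239 and 4929 FPKM in NSN to 2575 and 2289 FPKM in SN (log2 fold change -1.07, limma adjusted p = 0.036). Within a library, Bcl2l10 exceeded Gdf9 by 1.73 and 1.68 times in NSN and by 3.10 and 3.89 times in SN. The ratio to Zp3 was 1.24 and 1.17 in NSN and 1.47 and 1.71 in SN, so the groups did not overlap for either gene. By their own levels, 62.6% of all genes tested did not overlap between the groups. The ratio to H1f8 was 1.13 and 0.913 in NSN and 0.957 and 1.13 in SN, and the groups overlapped. A single scaling factor per library leaves these ratios as they are. Gdf9, Zp3 and H1f8 were set beside Bcl2l10 after their values were seen.

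Bcl2l1 (ENSMUSG00000007659.20, chromosome 2 from 152622582 to 152673655), which encodes the survival protein Bcl-xL, was the second most abundant member. It had 31.5 and 25.9 FPKM in NSN and 27.0 and 25.3 FPKM in SN replicates 1 and 2, from 2134, 1802, 1790 and 1768 read pairs. NSN replicate 1 stood above the other 3 libraries, and NSN replicate 2 lay between the SN libraries. The log2 fold change was -0.13 (95% interval -0.41 to 0.15, limma adjusted p = 0.487), and without NSN replicate 1 it was 0.01. Relative to the median gene it was -0.27, the largest of the members tested on that measure. In every library Bcl2l10 exceeded Bcl2l1, by 287 and 320 times in NSN and by 296 and 352 times in SN, with overlapping groups.

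Mcl1 (ENSMUSG00000038612.18, chromosome 3 from 95566026 to 95570487), whose short-lived protein restrains Bak1 and Bax in many cell types, was low. It had 0.756 and 0.621 FPKM in NSN and 0.651 and 0.601 FPKM in SN, from only 45, 38, 38 and 37 read pairs. NSN replicate 1 was the highest, and the other 3 libraries lay within 0.601 to 0.651 FPKM. The log2 fold change of -0.08 (limma adjusted p = 0.803) had a 95% interval from -0.51 to 0.36, that is a fold between 0.702 and 1.28, and no difference was detectable at this depth. Relative to the median gene it was -0.21. No exon of Mcl1 is shared with another annotated gene. Bcl2l1 exceeded Mcl1 by 41.7 times in both NSN libraries and by 41.4 and 42.0 times in SN, a description of these 4 libraries with no test.

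Bax (ENSMUSG00000003873.13, chromosome 7 from 45111015 to 45116325), the effector that forms pores in the outer membrane, had the largest log2 fold change of the members tested on the deposited FPKM, though not relative to the median gene. It had 11.7 and 10.9 FPKM in NSN and 12.6 and 15.4 FPKM in SN, from 176, 169, 187 and 241 read pairs. Both SN libraries lay above both NSN libraries, as they did for 44.8% of all genes tested. Its mean was 11.3 ± 0.550 in NSN and 14.0 ± 1.99 in SN (SD, n = 2). The log2 fold change was 0.30 (95% interval -0.0051 to 0.60) and did not pass the threshold (limma adjusted p = 0.163, unadjusted 0.0530). Relative to the median gene it was 0.16. It was 0.16 without SN replicate 2 and 0.44 without SN replicate 1. The summed level of granulosa markers given above, mostly Cyp19a1, was 9.78 and 13.8 FPKM in NSN and 14.1 and 14.0 FPKM in SN. Both SN sums thus lay above both NSN sums, NSN replicate 2 only slightly below. Within each configuration, the replicate with the higher sum had the lower Bax, though the SN sums were nearly equal (14.1 and 14.0 FPKM). The part of these markers in the value of Bax was not tested. Of the exonic bases of Bax in GENCODE M39, 13.6% are shared with other annotated genes, and the length behind the deposited values was 867 against 1856 exonic bases in M39, so the level of Bax is uncertain.

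**Figure D3:**
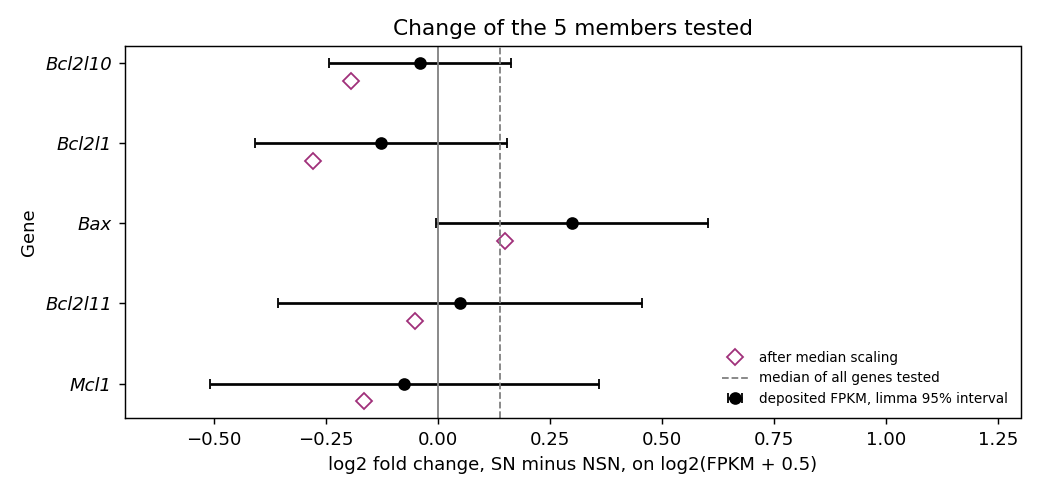
Log2 fold change (SN minus NSN, on log2(FPKM + 0.5)) of the 5 members tested, with limma's 95% interval (black), the value after median scaling of the libraries (open diamonds) and the median of all genes tested (dashed). Every interval covers 0, and on the deposited FPKM Bax at 0.30 lies farthest from it.

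Bcl2l11 (ENSMUSG00000027381.19, chromosome 2 from 127967958 to 128004476), which encodes the BH3-only protein Bim, was the most abundant of the 3 BH3-only members listed. It had 0.891 and 0.882 FPKM in NSN and 0.994 and 0.878 FPKM in SN, from 107, 109, 117 and 109 read pairs. SN replicate 1 was the highest and SN replicate 2 the lowest, so the NSN libraries lay between the SN libraries. The log2 fold change was 0.05 (95% interval -0.36 to 0.46, limma adjusted p = 0.867), and it turned to -0.0510 after median scaling. Relative to the median gene it was -0.09, the smallest of the members tested on that measure.

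Bid (ENSMUSG00000004446.14, chromosome 6 from 120862525 to 120894171), the BH3-only gene whose product is cleaved by caspase-8, was under the filter and was not tested with the others. It had 0.472 and 0.459 FPKM in NSN and 0.535 and 0.482 FPKM in SN, from 18, 18, 20 and 19 read pairs. The groups did not overlap (62.6% of all genes tested did not), but the nearest libraries were 1 read pair apart. The ratio of its read pairs in SN to NSN, per total, was 1.09, with an exact 95% interval for counting error from 0.676 to 1.77. In GENCODE M39, 34.5% of its exonic bases lie in other genes (Bcl2l13 and Gm17812), and the counts were made without strand.

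Pmaip1 (ENSMUSG00000024521.10, chromosome 18 from 66591604 to 66598636), which encodes the p53 target Noxa, was close to the floor. It had 0.0631 and 0.143 FPKM in NSN and 0.0858 and 0.0610 FPKM in SN, from 3, 7, 4 and 3 read pairs. NSN replicate 2 was the highest and the other 3 libraries had 3 or 4 read pairs. The ratio of read pairs in SN to NSN was 0.705, with a counting interval from 0.228 to 2.05, so no difference was detectable at this depth. When all listed genes entered the limma fit, Bid had a log2 fold change of 0.06 and Pmaip1 one of -0.07, with limma adjusted p of 0.830 and 0.737.

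Ratios between members within a library are left as they are by any single scaling factor per library, though not by quantile normalization. Bcl2l1 exceeded Bax by 2.70 and 2.38 times in NSN and by 2.14 and 1.64 times in SN. Bcl2l10 exceeded Bax by 777 and 762 times in NSN and by 632 and 576 times in SN. For these ratios the SN values were all under the NSN values, and Bax is the denominator of both. Bax alone did not overlap between the groups, and neither did 62.6% of all genes tested. No share over other ratios was worked out. The ratio of Bax to the summed BH3-only members, which leave out Bik, was 8.17 and 7.33 in NSN and 7.82 and 10.9 in SN, with overlapping groups. Bcl2l10 made up 99.5% of the summed FPKM of the 7 members in each of the 4 libraries, and 98.7% to 98.9% of their read pairs, so every sum over the family follows Bcl2l10.

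**Figure D4:**
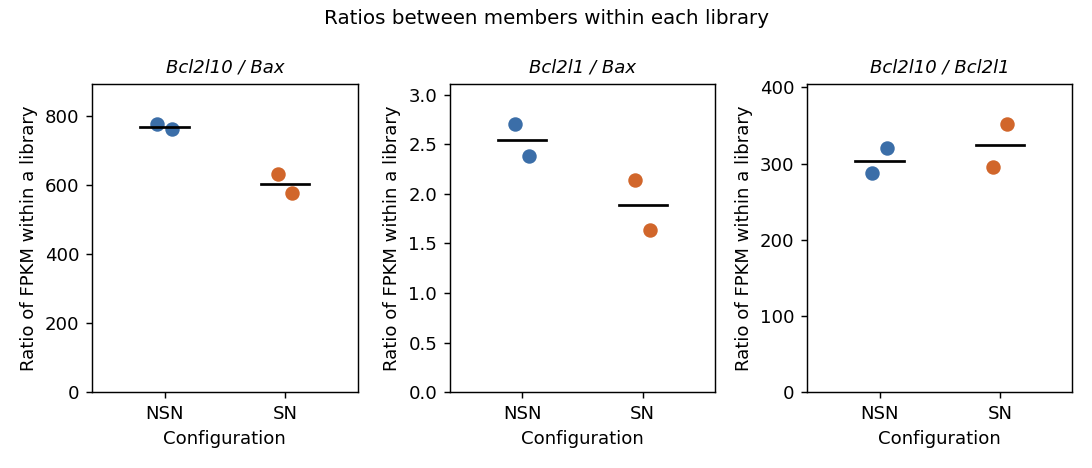
Ratio of FPKM within a library for Bcl2l10 to Bax, Bcl2l1 to Bax and Bcl2l10 to Bcl2l1, with one point per library (NSN in blue, SN in orange) and a bar at the mean of the 2 libraries. The ratios to Bax lie lower in SN (Bcl2l1 to Bax 2.14 and 1.64, against 2.70 and 2.38), and those of Bcl2l10 to Bcl2l1 overlap.

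The rest of the apoptosis pathway was followed in lists of 93 further gene names (March5 and Marchf5 being an older and a newer name of 1 gene), of which 78 were listed and 62 tested. Of these, 2 were called, both higher in SN, which is 3.23% against 7.93% of all genes tested, and 20 had an unadjusted p under 0.05 against 31.7% of all genes. The same 2 shares over all genes are the background for the counts of each list below. Voom called 14 of the 62 (11 higher, 3 lower), beside 19.7% of all genes by voom. Their median log2 fold change was 0.08, beside 0.14 over all genes tested. The 2 genes were Bnip3 and Usp9x. Usp9x, a deubiquitinase known to stabilise Mcl1 protein, had 15.2 and 20.5 FPKM in NSN and 33.1 and 33.2 FPKM in SN. On the log2 scale it rose by 0.89 ± 0.14 (standard error, limma adjusted p = 0.036), and by 0.74 after median scaling (limma adjusted p = 0.0494). It was not called when NSN replicate 1 or either SN replicate was left out (limma adjusted p = 0.0679, 0.0682 and 0.0930). Bnip3, a mitochondrial relative of the family that also serves in mitophagy, had 33.7 and 36.4 FPKM in NSN and 45.8 and 45.5 FPKM in SN. On the log2 scale it rose by 0.38 ± 0.09 (standard error, limma adjusted p = 0.0488), but it was no longer called after median scaling, or when NSN replicate 1 or either SN replicate was left out (after scaling, log2 fold change 0.22, limma adjusted p = 0.134), nor with the replicate number as a block (limma adjusted p = 0.0765).

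Of the other Bcl2 family genes, 11 of 17 were listed and 7 tested, and 1 was called, Bnip3. The most abundant was Bnip3l, a mitophagy receptor, at 225 and 233 FPKM in NSN and 229 and 227 FPKM in SN (log2 fold change -0.0049, limma adjusted p = 0.969). Bnip1 had 44.6 and 47.3 FPKM in NSN and 42.6 and 51.2 FPKM in SN. Bik, a BH3-only gene outside the 10 and named here after its values were seen, had 7.01 and 8.37 FPKM in NSN and 6.71 and 7.53 FPKM in SN, above Bcl2l11, Bid and Pmaip1 in every library. Bcl2l2, a survival gene, had 2 to 7 read pairs per library, and Bad and Bmf were also under the filter.

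Of the 9 apoptosome and caspase genes tested, 0 were called by limma, and 2 had an unadjusted p under 0.05. Casp8, the initiator caspase of death receptors, was the most abundant, at 22.7 and 28.6 FPKM in NSN and 32.8 and 39.3 FPKM in SN (log2 fold change 0.49, limma adjusted p = 0.077). Aifm1 had 14.5 to 16.5 FPKM in the 4 libraries. Cycs, which encodes cytochrome c, had 11.6 and 10.9 FPKM in NSN and 14.0 and 13.7 FPKM in SN (limma adjusted p = 0.108).

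Of the inhibitor of apoptosis (IAP) genes and their antagonists, 0 of 8 tested were called by limma, and 3 had an unadjusted p under 0.05. Birc5, which encodes survivin of the chromosomal passenger complex, had 702 and 653 FPKM in NSN and 527 and 615 FPKM in SN (log2 fold change -0.25, limma adjusted p = 0.128). Birc3 had 173 to 197 FPKM and Naip1 12.5 to 15.1 FPKM. In the death receptor list 0 of 4 tested genes were called, and 0 had an unadjusted p under 0.05. Its most abundant genes were Fadd, the adaptor of Casp8, at 6.77 and 6.45 FPKM in NSN and 7.17 and 8.56 FPKM in SN, Ripk1 at 2.23 to 4.51 FPKM and Cflar at 1.37 to 1.82 FPKM.

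Of the p53 family and damage kinases, 0 of 11 tested genes were called by limma, and 3 had an unadjusted p under 0.05. Mdm4, an inhibitor of p53, had 358 and 376 FPKM in NSN and 419 and 393 FPKM in SN (log2 fold change 0.14, limma adjusted p = 0.229). The checkpoint kinase gene Chek1 had 137 to 155 FPKM. Ddit3, a stress factor known to induce Bcl2l11, had 43.8 and 45.5 FPKM in NSN and 50.5 and 61.2 FPKM in SN (limma adjusted p = 0.112).

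Among the genes that act on the turnover of Mcl1 and Bim proteins, Usp9x was the only one called of 8 tested, and 5 had an unadjusted p under 0.05. Over all genes tested, 7.93% were called and 31.7% had an unadjusted limma p under 0.05. Mapk3, an ERK kinase, had 176 and 147 FPKM in NSN and 118 and 123 FPKM in SN (log2 fold change -0.42, limma adjusted p = 0.054). Marchf5, a ubiquitin ligase of the outer membrane, had 131 and 144 FPKM in NSN and 177 and 170 FPKM in SN (log2 fold change 0.33, limma adjusted p = 0.054), and Btrc had 33.8 to 40.9 FPKM. All 15 mitochondrial partners were tested and 0 were called by limma, while 4 had an unadjusted p under 0.05. Mff, a receptor for mitochondrial fission, had 711 to 745 FPKM. Vdac3 had 584 and 602 FPKM in NSN and 653 and 682 FPKM in SN (limma adjusted p = 0.148). Vdac2, the porin known to hold Bak1 and Bax at the membrane, had 66.4 to 75.3 FPKM.

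**Figure D5:**
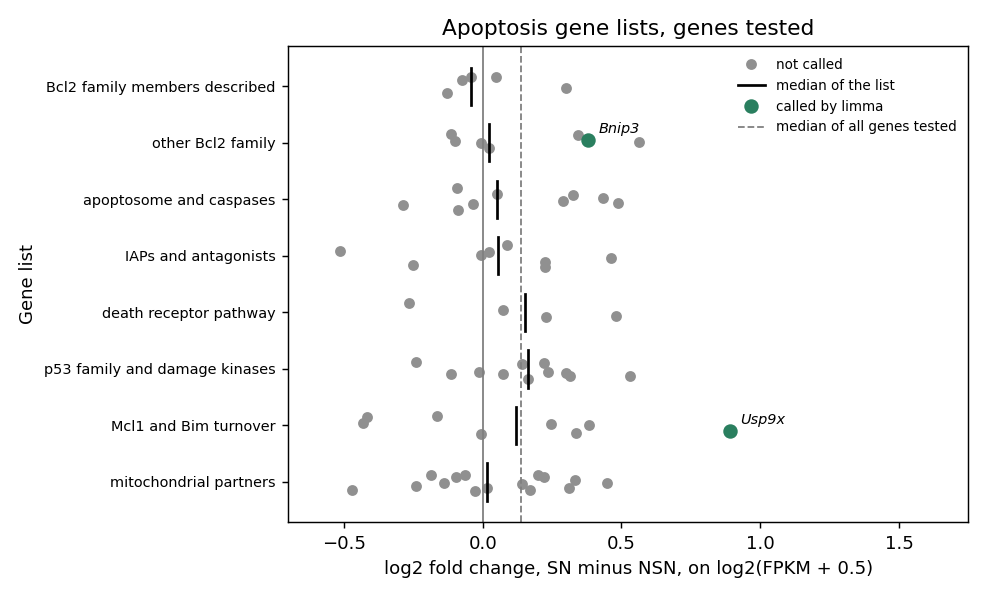
Log2 fold change (SN minus NSN, on log2(FPKM + 0.5)) of each tested gene in the Bcl2 family set and the 7 apoptosis lists, one point per gene with random vertical spread, the median of each list as a black bar and the median of all genes tested dashed. The 2 genes called, Bnip3 (0.38) and Usp9x (0.89), are green, and 0 of the 5 members were called.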

How the data were processed

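The authors deposited FPKM per gene. Per the labels and methods, reads were trimmed (Trim Galore 0.6.10) and aligned to GRCm39 (HISAT2), and featureCounts assigned pairs to exons without regard to strand. The labels speak of 3 samples per group, and the 2 per group used here are those given. The members and gene lists were chosen with earlier results of these data known.

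The total of each library was worked out from 5 mitochondrial tRNA genes, then gene lengths and whole read pairs (within 1e-06) for 99.9% of 16861 genes. Positions and exonic lengths came from GENCODE M39, a later release than the authors' on the same build.

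SN was compared with NSN on log2(FPKM + 0.5) for genes whose FPKM averaged 0.5 or more, with limma 3.58.1 (lmFit, eBayes with a variance trend, R 4.3.3) and Benjamini-Hochberg adjustment over 11672 genes, two-sided. Genes were called at an adjusted p under 0.05 and a 1.2-fold difference. The procedure was tested on simulated data. Named genes were all members, the called genes of each list and the 3 most abundant. Other values used Python 3.11.15 and scipy 1.17.1.

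Alternatives were pseudocounts, filters, scalings, the variance model, voom, the replicate number as a block, an adjusted p under 0.1 and each library left out in turn. Exonic lengths of GENCODE M39 were added after the data were seen, and read pairs were not recounted for them.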

Additional observations from a re-analysis of the deposited data

How the results depend on the processing

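The count of called members stayed at 0 under every alternative run, and the lowest limma adjusted p of any member was 0.115 (Bax, with the FPKM filter at 5). In the fits on all 4 libraries, an unadjusted p under 0.05 was met by 2 of 5 members with voom and median scaling (3491 of all 11660 genes). With the FPKM filter at 5 it was met by 1 of 3 (2392 of all 5519 genes), and by 0 members under the other settings. Over the 73 values of the 5 members under the alternatives, 64 kept their sign, 1 (Bcl2l10 after quantile normalization) was 0 and 8 changed sign. Bcl2l11 turned to -0.0510 after median scaling, -0.0308 after quantile normalization and -0.0792 with voom and median scaling. Leaving out each library in turn gave -0.12 to 0.0378 for Bcl2l10, -0.16 to 0.0069 for Mcl1, -0.27 to 0.0125 for Bcl2l1, 0.16 to 0.44 for Bax and -0.0090 to 0.11 for Bcl2l11. The lone library of a group was there assumed to vary like the other group. The cause of these moves was not tested.

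The number of genes called over the whole table, 926 (695 higher, 231 lower in SN), became 1496 with the FPKM filter at 5, 257 after median scaling (78 higher, 179 lower), 230 after quantile normalization (74 higher, 156 lower), 422 with the replicate block (266 higher, 156 lower), 2297 with voom, 1713 with voom and median scaling (750 higher, 963 lower) and 2370 at an adjusted p under 0.1. It was 0 without the filter (4092 genes with unadjusted p below 0.05) and 0 with a constant prior variance (3449). Leaving out each library gave 0 (without NSN replicate 1) to 1685 (without NSN replicate 2), with 148 without SN replicate 1 and 11 without SN replicate 2.

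The 2 called genes of the pathway lists became 1 with a pseudocount of 0.1, median scaling, quantile normalization and the replicate block, 0 without the filter and with a constant prior variance, 10 with the FPKM filter at 5, 14 with voom, 9 with voom and median scaling and 12 at an adjusted p under 0.1, and 0 to 7 with each library left out. Usp9x was no longer called without NSN replicate 1 (limma adjusted p = 0.0679), SN replicate 1 (0.0682) or SN replicate 2 (0.0930). Same-numbered libraries share only a number: the replicate differences of NSN and SN correlated at -0.07 across genes, and with the replicate block 0 members were called. Depth limits Mcl1, Bid and Pmaip1, whose values rest on at most 45 read pairs a library.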
